A study of Mus musculus with 6 samples.

Results

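A set of 10 genes of the cornified envelope, outside the small proline-rich (Sprr) family, was followed in mouse embryos without (Get1 -/-) and with 1 functional copy of Get1 (Get1 +/-): Ivl, Scel, Sbsn, Tgm1, Tgm3, Krtdap, Dmkn, Evpl, Ppl and Cst6. They were chosen by symbol, and all 10 had a probe set, out of 18193 genes that the array represents. The study profiled bladder RNA of embryonic day 18.5 on 6 arrays, 3 of Get1 -/- (null arrays 1 to 3) and 3 of Get1 +/- (heterozygous arrays 4 to 6). Get1 is another name of Grhl3, which encodes a grainyhead-like transcription factor. The heterozygous embryos, were the controls, with wild-type embryos not analysed here. The labels name no strain, no treatment and no deleted exon, and they do not say whether a sample was 1 bladder or a pool. How far the spread between arrays reflects differences between embryos is therefore not known, and it may be in part technical. The titles carry a further number, 1 for null array 1 and 2 for the others, whose meaning they do not state.

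The cornified envelope is a layer of cross-linked protein that replaces the plasma membrane of the outermost cells in skin and other keratinising epithelia. Transglutaminases, among them the products of Tgm1 and Tgm3, join glutamine and lysine side chains of precursors such as involucrin (Ivl), envoplakin (Evpl), periplakin (Ppl) and sciellin (Scel). Cystatin M/E (Cst6) inhibits cysteine proteases that act on this system, and suprabasin (Sbsn), dermokine (Dmkn) and Krtdap encode secreted proteins of differentiating stratified epithelium. In skin, Grhl3 is known as a regulator of Tgm1 and of barrier formation. The urothelium of the bladder is stratified but normally does not cornify.

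Sbsn, Dmkn and Krtdap are next to each other on mouse chromosome 7 with 0 other protein-coding genes between them in the RefSeq table, and Ivl lies next to Sprr4 on chromosome 3. RefSeq start-site windows (build GRCm38.p6, 250 bases before to 50 after the start) were at hand for 7 of the 10 genes, in 10 windows. Those of the 3 neighbours are shown first, followed by those of Scel and Ivl, a gene with higher and a gene with lower mean levels in null bladders. Letters in capitals mark TGANTCA, with any base at N, and TATAAA, the TATA box, on either strand. TGANTCA is a loose form of the recognition sequence of AP-1 factors, so a match need not be an AP-1 site.
Sbsn, chr7:30751221-30751520, plus strand: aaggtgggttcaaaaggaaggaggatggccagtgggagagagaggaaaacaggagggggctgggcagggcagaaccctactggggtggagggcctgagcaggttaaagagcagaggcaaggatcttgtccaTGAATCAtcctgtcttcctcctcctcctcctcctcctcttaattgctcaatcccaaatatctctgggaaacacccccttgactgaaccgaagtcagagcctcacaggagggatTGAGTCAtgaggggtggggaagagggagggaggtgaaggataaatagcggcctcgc
Dmkn, chr7:30763506-30763805, plus strand: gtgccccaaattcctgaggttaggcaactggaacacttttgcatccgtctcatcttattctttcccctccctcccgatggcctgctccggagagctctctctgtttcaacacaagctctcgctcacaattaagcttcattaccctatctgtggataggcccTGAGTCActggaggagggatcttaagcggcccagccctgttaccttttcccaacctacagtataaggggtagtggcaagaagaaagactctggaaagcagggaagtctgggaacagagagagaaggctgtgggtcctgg
Krtdap, chr7:30787655-30787954, plus strand: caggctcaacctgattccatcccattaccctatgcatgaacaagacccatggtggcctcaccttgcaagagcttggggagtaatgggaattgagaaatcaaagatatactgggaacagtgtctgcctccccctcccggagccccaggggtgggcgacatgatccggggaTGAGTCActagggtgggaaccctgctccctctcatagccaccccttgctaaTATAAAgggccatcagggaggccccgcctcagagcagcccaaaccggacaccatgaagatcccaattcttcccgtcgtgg
Scel, chr14:103513091-103513390, plus strand: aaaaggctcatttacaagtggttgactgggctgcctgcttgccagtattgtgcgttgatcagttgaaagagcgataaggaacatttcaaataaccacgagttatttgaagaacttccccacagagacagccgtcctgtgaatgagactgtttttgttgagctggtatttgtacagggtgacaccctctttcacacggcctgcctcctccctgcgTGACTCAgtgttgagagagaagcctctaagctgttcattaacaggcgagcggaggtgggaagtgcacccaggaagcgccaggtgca
Ivl, chr3:92573686-92573985, minus strand: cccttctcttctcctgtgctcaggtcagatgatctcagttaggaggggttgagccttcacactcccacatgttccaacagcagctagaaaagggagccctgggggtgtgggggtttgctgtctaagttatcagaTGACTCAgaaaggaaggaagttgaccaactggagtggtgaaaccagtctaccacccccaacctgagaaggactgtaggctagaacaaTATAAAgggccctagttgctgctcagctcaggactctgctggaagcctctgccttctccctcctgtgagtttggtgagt

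TGANTCA was found in the windows of 5 of the 7 genes (Sbsn, Dmkn, Krtdap, Scel and Ivl), while 8.97% of all 27025 genes with a window held it. In Krtdap and in the printed Dmkn window the match began 81 and 89 bases before the start, in Ivl 116 and in Scel 36 bases before it. Sbsn held 2 matches, TGAATCA 119 and TGAGTCA 6 bases before its start. TATAAA was found in Ivl, Krtdap and Tgm3, where it began 29, 30 and 28 bases before the start, against 15.7% of all genes. The core sequence bound by grainyhead-like factors, AACCGGTT, was in 0 of the 10 windows (0.146% of all windows held it), and the looser form AACNNGTT, which includes the first, was also in 0 of 10 (4.2% of all windows). These matches describe the letters of short windows only.

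Values are probe set intensities on a linear scale, called signal below. Levels and differences are on the log2(signal + 16) scale, differences are null minus heterozygous, and errors of levels are SDs over 3 arrays. A gene was taken as dim, and left out of the test across genes, when its mean level was among the lowest 30% (under 5.80, a signal of 39.7). Of the 10 genes 8 were tested, and Tgm1 and Cst6 were dim. A gene was called at an adjusted p under 0.05 in limma over all 12736 genes tested. The smallest two-sided p of the exact permutation test with 3 arrays a group is 0.1.

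None of the 8 tested genes was called in either direction (limma, 0 higher and 0 lower), where 0.51% of all genes were called, 0.448% higher and 0.0628% lower. At an unadjusted p under 0.05 there were 3 of the 8, Scel and Sbsn with higher and Evpl with lower values in null bladders, against 7.93% of all genes tested (3.63% higher and 4.3% lower). Groups did not overlap for 2 of the 8, Scel and Sbsn, against 13.4% of all genes tested (6.07% higher and 7.36% lower). The 8 differences ran from −0.83 (Evpl) to 0.89 (Scel), 4 above and 4 below 0, with a median of −0.12 beside −0.03 over all genes. Differences of Ivl, Evpl, Ppl and Tgm3 were below 0, and those of Scel, Sbsn, Dmkn and Krtdap above 0, with 0 of them called.

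**Figure D1:**
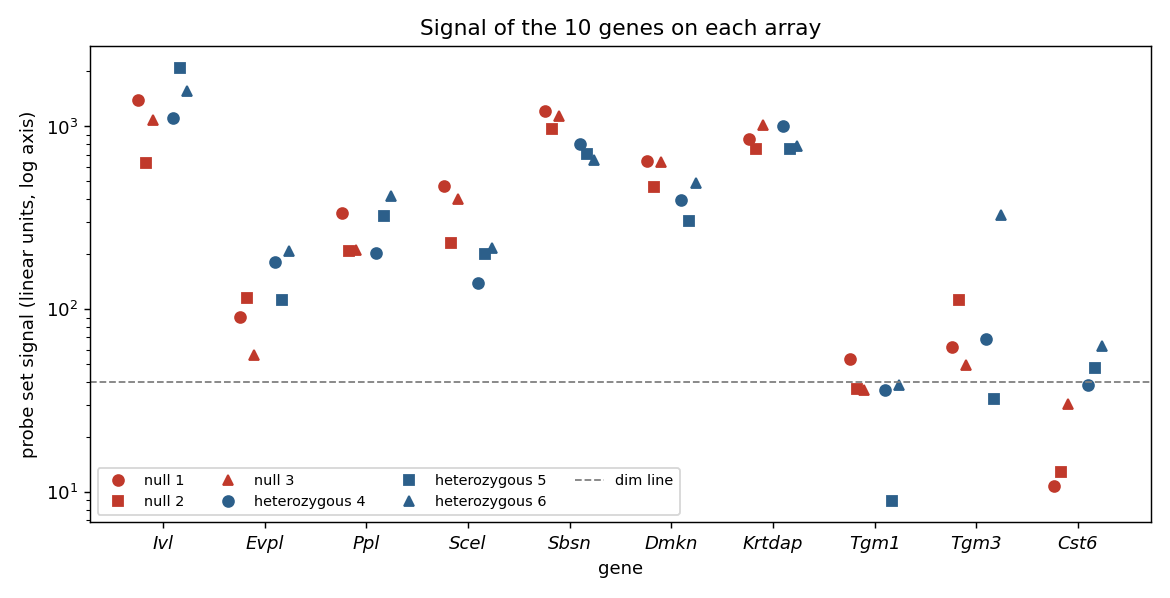
Signal of each of the 10 genes (log axis, linear units) on the 3 null arrays (red) and the 3 heterozygous arrays (blue), with the dim line at 39.7. Scel and Sbsn were higher and Cst6 lower on every null array than on any heterozygous array, and the other 7 genes overlapped.

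Among the scaffold genes, involucrin is an elongated precursor rich in glutamine that is laid down early. Ivl signal was 1404, 629 and 1080 on null arrays 1 to 3, against 1108, 2101 and 1571 on heterozygous arrays 4 to 6. Null array 1 lay above heterozygous array 4, so the groups overlapped. Levels averaged 9.97 ± 0.58 in null against 10.60 ± 0.46 in heterozygous samples (SD, n = 3 each), and the difference of −0.64 (95% interval −1.47 to 0.19) was not called (adjusted p = 0.738, limma; exact permutation p = 0.2). The other Ivl probe set, with signals of 725, 274 and 422 on null, against 492, 1437 and 776 on heterozygous arrays, gave −0.88 (exact permutation p = 0.2). Both probe sets of Ivl were lowest on null array 2 and highest on heterozygous array 5.

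Envoplakin and periplakin are plakins that anchor the envelope to keratin filaments and to desmosomes, and they can pair with each other. Evpl signal was 91.0, 115.7 and 56.3 on the null arrays, against 182, 112.3 and 208 on the heterozygous arrays. Only null array 2 and heterozygous array 5 crossed, at 115.7 and 112.3. Levels averaged 6.65 ± 0.44 in null against 7.48 ± 0.42 in heterozygous samples (SD, n = 3 each), a difference of −0.83 (95% interval −1.56 to −0.10, unadjusted p = 0.0306, adjusted p = 0.558, limma; exact permutation p = 0.2). Ppl signal was 334, 207 and 212 on the null arrays, against 203, 323 and 414 on the heterozygous arrays. All null arrays lay above heterozygous array 4, and null array 1 also above heterozygous array 5. The difference of −0.28 (95% interval −1.01 to 0.45, adjusted p = 0.893, limma) was smaller than the spread between arrays (SDs of 0.37 and 0.49).

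Sciellin is an envelope precursor of stratified epithelia. Scel signal was 474, 229 and 400 on the null arrays, against 139, 201 and 217 on the heterozygous arrays. All null values were above all heterozygous values, though null array 2 exceeded heterozygous array 6 by little. Levels averaged 8.53 ± 0.52 in null against 7.64 ± 0.31 in heterozygous samples (SD, n = 3 each), 1.85-fold on this scale (difference 0.89, 95% interval 0.16 to 1.62, unadjusted p = 0.0226, adjusted p = 0.523, limma; exact permutation p = 0.1). A dim probe set of Scel also had separate groups, with signals of 11.8, 13.1 and 25.3 against 1.7, 9.7 and 1.4 and a difference of 0.69.

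Of the 3 neighbours on chromosome 7, Sbsn and Dmkn had similar differences of 0.60 and 0.55, and that of Krtdap was 0.04. Sbsn signal was 1209, 973 and 1139 on the null arrays, against 806, 709 and 654 on the heterozygous arrays. The groups were separate and tight, with levels of 10.13 ± 0.16 and 9.53 ± 0.15 (SD, n = 3 each) and a difference of 0.60, or 1.52-fold (95% interval 0.12 to 1.09, unadjusted p = 0.0213, adjusted p = 0.515, limma; exact permutation p = 0.1). The name of this probe set marks it as one that can also match other transcripts. The other Sbsn probe sets gave 0.75 and 1.13, both with separate groups, and the dimmer of them had signals of 58.7, 87.2 and 89.7 on null, against 24.1, 19.7 and 38.1 on heterozygous arrays.

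Dmkn signal was 643, 465 and 636 on the null arrays, against 394, 302 and 490 on the heterozygous arrays, so that null array 2 lay below heterozygous array 6. The difference was 0.55 (95% interval −0.05 to 1.15, adjusted p = 0.661, limma). Krtdap signal was 851, 749 and 1021 on the null arrays, against 1010, 749 and 784 on the heterozygous arrays, which overlapped almost fully. Its difference was 0.04, with a 95% interval from −0.49 to 0.58 (adjusted p = 0.986, limma), and it had no settled sign, since it was −0.07 without null array 3, −0.04 without heterozygous array 5 and −0.0050 without heterozygous array 6.

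The ratio of each pair of neighbours was compared within arrays, for 3 pairs chosen after the values were seen. Relative to its heterozygous mean, the log2 ratio of Sbsn to Krtdap was 0.71 for null array 1, 0.59 for null array 2 and 0.37 for null array 3, against −0.10, 0.14 and −0.04 for the controls. The groups were separate, with a difference of 0.56 (exact permutation p = 0.1, adjusted over the 3 pairs 0.3). Dmkn to Krtdap gave 0.51 with overlapping groups (exact permutation p = 0.3, adjusted 0.45), and Sbsn to Dmkn gave 0.05 (exact permutation p = 0.9, adjusted 0.9). With 3 arrays a group, 0 of the 3 ratios could pass the threshold.

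**Figure D2:**
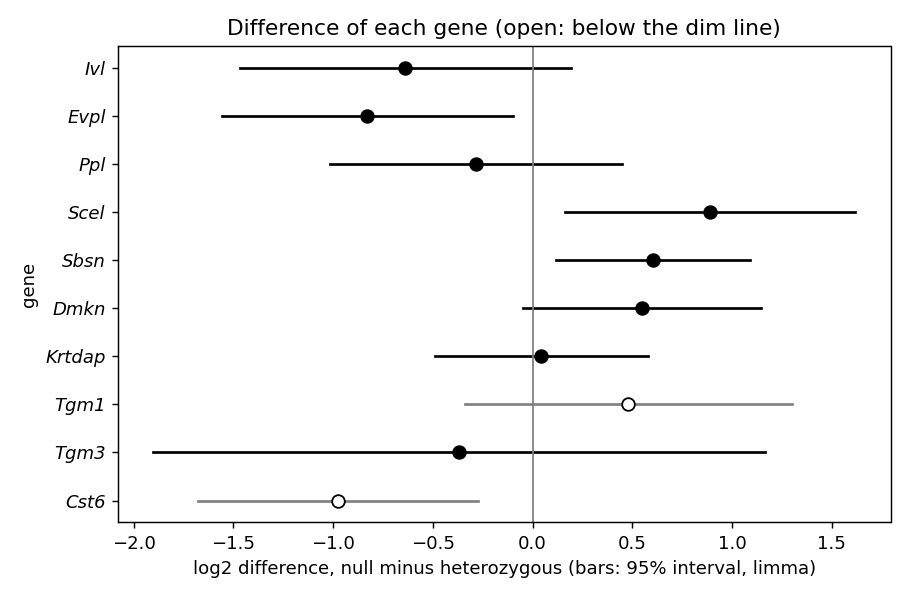
Difference of each gene (log2, null minus heterozygous) with its 95% interval from limma. Filled points were tested over 12736 genes, and the open points (Tgm1 and Cst6) are dim genes with intervals from a fit of all 18193 genes. The intervals of Scel and Sbsn lie above 0 and those of Evpl and Cst6 below 0, before any adjustment for the number of genes.

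For neither of the cross-linking enzymes of the set was the difference larger than the spread between heterozygous arrays. Tgm1 encodes the membrane-bound transglutaminase of keratinocytes and was dim, with signals of 53.6, 36.6 and 36.3 on null arrays, against 35.9, 9.0 and 38.3 on heterozygous arrays. Heterozygous array 5 stood below all others, which lay between 35.9 and 53.6. Levels averaged 5.85 ± 0.24 in null against 5.37 ± 0.63 in heterozygous samples (SD, n = 3 each; exact permutation p = 0.4), and the difference of 0.48 was 0.12 without heterozygous array 5. In the fit with no dim filter its 95% interval ran from −0.34 to 1.30 (adjusted p = 0.841, limma).

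Tgm3 encodes a soluble transglutaminase of late differentiation and hair. Signals were 61.8, 112.4 and 49.7 on the null arrays, against 68.5, 32.4 and 328 on the heterozygous arrays. Heterozygous array 6 was far above the other 5, and its group SD of 1.46 was the widest among the 10 genes. The difference of −0.37 (95% interval −1.90 to 1.17, adjusted p = 0.95, limma) was 0.44 without that array. The second Tgm3 probe set was dim, at 3.8, 4.9 and 27.9 on null, against 15.5, 15.7 and 24.7 on heterozygous arrays, and did not show the high value of heterozygous array 6.

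Cystatin M/E, the inhibitor of the set, was dim as well. Cst6 signal was 10.7, 12.8 and 30.3 on the null arrays, against 38.2, 47.6 and 62.8 on the heterozygous arrays. Every null value was below every heterozygous value. Levels were 5.04 ± 0.43 and 6.02 ± 0.27 (SD, n = 3 each), a difference of −0.98 (exact permutation p = 0.1). The size depended on the offset, being −1.53 with an offset of 1 and −0.47 with 64. With no dim filter the 95% interval was −1.68 to −0.28 (unadjusted p = 0.0126, adjusted p = 0.45, limma). Of the 8 tested genes for its protease targets, related proteases and other cystatins, 0 were called (limma, 1 higher and 0 lower at an unadjusted p under 0.05). Ctsc, the gene of the protease cathepsin C, had separate groups at 0.58 (adjusted p = 0.576, limma). Lgmn, the gene of legumain, a known target of cystatin M/E, had a difference of −0.68 (adjusted p = 0.778, limma), and Ctsl, the gene of cathepsin L, had 0.06.

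**Figure D3:**
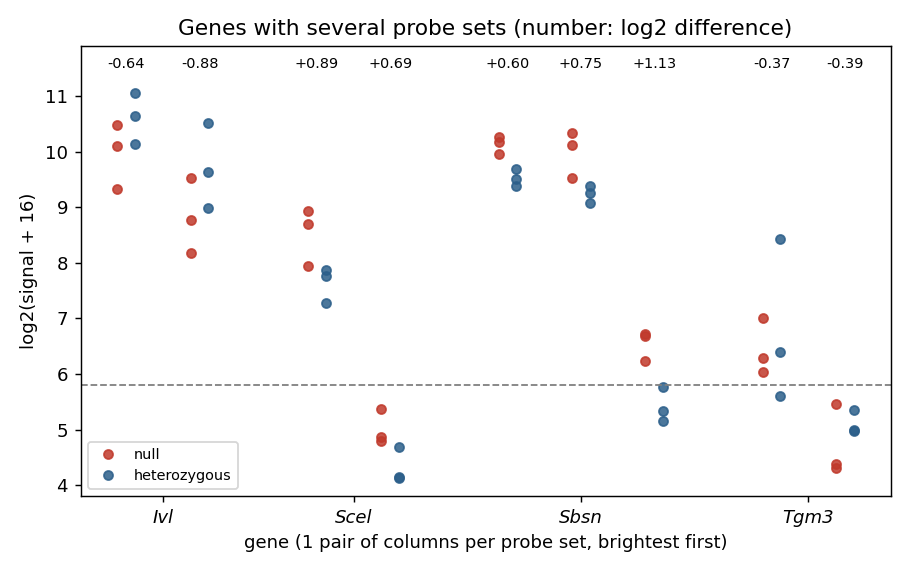
Levels (log2 of signal + 16) on null (red) and heterozygous (blue) arrays for the 4 genes with several probe sets, brightest first, with the difference printed above each and the dim line at 5.80. Within each gene all probe sets have the same sign of difference, from 0.60 to 1.13 for Sbsn and −0.64 and −0.88 for Ivl.

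The same arrays differed in markers of other cells, and fewer cells of a type and less RNA per cell cannot be told apart in whole bladders. General epithelium markers (Epcam, Cdh1, Krt5, Krt7, Krt8, Krt18 and Krt19) had a mean level of 12.12 ± 0.15 in null against 11.68 ± 0.30 in heterozygous samples (SD, n = 3 each), with separate groups and a difference of 0.44 (exact permutation p = 0.1). Single markers differed: Epcam, Cdh1 and Krt19 had separate groups at 1.06, 0.84 and 1.15. Krt5, Krt7 and Krt8 overlapped at 0.03, 0.36 and 0.16, and Krt18 had separate groups in the other direction at −0.50. Of the 9 tested intestine markers 8 were called higher (median difference 4.37), and the summed signal of all 10 was 13097 to 22223 on null against 251 to 551 on heterozygous arrays. Umbrella cell markers of the urothelium, all 7 of them tested, gave 2 called lower, Snx31 and Upk2, with a summed signal of 8073 to 10690 against 13929 to 20601. Their part in the differences of the envelope genes was not tested.

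Differences were also scaled to the general epithelium markers, a comparison added after the values were seen. It takes the same array value from every gene and so lowers every difference by 0.44. On this scale Ivl was at −1.08, Evpl at −1.27, Ppl at −0.72, Tgm3 at −0.81 and Krtdap at −0.40, while Scel was at 0.45, Sbsn at 0.16 and Dmkn at 0.11. Groups did not overlap for 3 of the 8 tested genes, Ivl, Evpl and Ppl, all lower (exact permutation p = 0.1 each), a share near that of all genes tested on the same scale (29.2% lower and 1.08% higher). Of the dim genes Cst6 was at −1.42 with separate groups and Tgm1 at 0.04. The markers include genes that the intestine expresses too.

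Epidermal markers were low on all arrays. Of the 11 with a probe set, 3 passed the dim filter (Krt1, Krt10 and Lor), 0 were called (limma, 0 higher and 1 lower at an unadjusted p under 0.05), and the summed signal was 417 to 530 on null and 610 to 765 on heterozygous arrays. Krt10, a suprabasal keratin of the epidermis, had signals of 151, 187 and 154 against 233, 226 and 340 (difference −0.63, adjusted p = 0.553, limma). Flg, the gene of filaggrin, was near the lowest signals on null arrays (1.3, 2.9 and 1.8). On heterozygous arrays 4 to 6 it was at 24.7, 37.4 and 2.8, so the groups overlapped. Over all 11 markers 7 had values below 0 and 4 above 0, among the latter Krt77, a dim keratin gene with separate groups at 0.57. Groups were also separate, in the other direction, for Krt10 and for Krt2, another dim keratin gene, at −1.07. The part of these markers in the differences of the envelope genes was not tested.

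Of the other envelope precursors, 26 of 29 had a probe set and 7 passed the dim filter, while 14 of the 19 dim ones were late cornified envelope (Lce) genes. None of the 7 was called (limma, 0 at an unadjusted p under 0.05 in either direction), and the median was −0.16. Groups were separate for 1 of the 7, Csta1, at −0.36 (adjusted p = 0.795, limma; exact permutation p = 0.1), against 13.4% of all genes tested. Lor, the gene of loricrin, the main protein of the mature envelope in skin, had signals of 122, 149 and 62 on null, against 216, 108 and 174 on heterozygous arrays (difference −0.54, adjusted p = 0.785, limma). Pof1b, an actin-binding gene of epithelial junctions, had a difference of 0.60 (adjusted p = 0.657). Of the 3 tested Sprr genes Sprr1a fell by 1.99 (adjusted p = 0.00926, limma), from 12970 to 16660 on heterozygous to 3229 to 4698 on null arrays, and the groups of Ivl, in the same gene cluster, overlapped.

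Among relatives by family, Eppk1 rose. It encodes epiplakin, a plakin-repeat protein of epithelia that binds keratins, with signals of 12090, 7343 and 7792 on the null arrays against 2628, 3083 and 2266 on the heterozygous arrays. The difference was 1.74 (SE 0.27, adjusted p = 0.0408, limma; exact permutation p = 0.1). This call is near the threshold: with any 1 of the 6 arrays left out the adjusted p lay between 0.0926 and 0.164, with differences from 1.51 to 1.87. It also missed with an offset of 1 (adjusted p = 0.0797) and with no dim filter (0.0799). The intestine markers rose on the same arrays, and which cells made Eppk1 was not measured. Of the 5 tested plakin relatives it was the 1 called, with a median of 0.22, and desmoplakin (Dsp) had separate groups at 0.43 (adjusted p = 0.734), while the plakins of the envelope, Evpl and Ppl, had values below 0.

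Of the other transglutaminase genes 3 were tested and 0 called (limma, 0 at an unadjusted p under 0.05), with differences from −0.06 (F13a1) to 0.17 (Tgm4). Tgm2, the tissue transglutaminase, had signals of 10070, 18830 and 7014 on null, against 7227, 13010 and 14990 on heterozygous arrays, which overlapped fully. Of 8 tested genes for lipids of the envelope 0 were called (limma, 1 higher and 2 lower at an unadjusted p under 0.05), with a median of −0.23. Elovl4, which makes very long chain fatty acids, and Cers3, the ceramide synthase of the skin barrier, had separate groups at −0.91 and −0.85 (adjusted p = 0.536 and 0.324), and Fa2h, a fatty acid hydroxylase, had separate groups at 0.92 (adjusted p = 0.399). Proteases of desquamation and their inhibitors had 6 tested genes and 0 calls (1 higher and 0 lower at an unadjusted p under 0.05, limma), with St14, the gene of matriptase, at 1.01 (adjusted p = 0.543). Over all genes tested 0.51% were called, 7.93% had an unadjusted p under 0.05 (limma) and 13.4% had separate groups. Beside these shares, 0 calls in a list this short say little, here and for the other lists.

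Of 16 tested regulators of epithelial differentiation 0 were called (limma, 1 higher and 1 lower at an unadjusted p under 0.05), and the median was 0.07. Ehf, an epithelial Ets factor, had a difference of 0.80 (adjusted p = 0.59) and Hopx, a homeodomain protein of differentiating epithelium, one of −0.78 (adjusted p = 0.553), both with separate groups. Grhl2, a paralogue of Grhl3, was at 0.53 (adjusted p = 0.721). The Grhl3 probe set, a check of the labels, had signals of 76.6, 21.5 and 119.7 on null, against 143, 133 and 126 on heterozygous arrays (adjusted p = 0.655, limma), and where it lies relative to the deleted part is not known here, so it may check nothing.

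**Figure D4:**
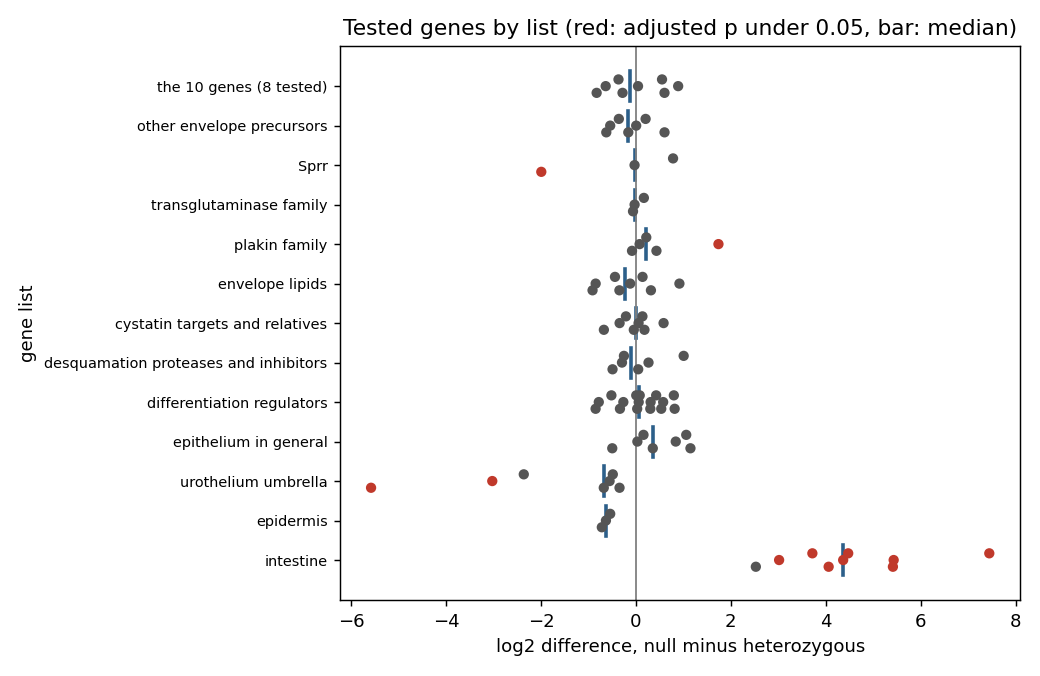
Differences (log2, null minus heterozygous) of all tested genes by list, with red points for an adjusted p under 0.05 and a blue bar for the median. The 8 tested genes of the set lie between −0.83 and 0.89 with 0 calls, while Sprr1a, Eppk1, 2 umbrella cell markers and 8 intestine markers are the red points.

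The tested gene with the most similar levels over the 6 arrays was found for each of the 8, by Pearson's r among 12735 candidates, so that high values arise easily with 6 points. Sbsn was nearest to Tpd52 (r = 0.998, difference of Tpd52 0.67), Scel to Ifi27l2a (0.985), Dmkn to Oas1a (0.984) and Krtdap to Ccng2 (0.985). Evpl was nearest to Elovl6 (0.989), Ivl to Gm36457 (0.989), Ppl to App (0.977) and Tgm3 to Lrrc75a (0.998). In this search no gene of the set was nearest to another of the set. Almost all candidates lay outside the set, so this does not show whether its genes varied together.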

How the data were processed

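Bladder RNA was labelled and hybridised to Affymetrix arrays, 3 per genotype. The labels describe a sense-strand whole-transcript kit, while the probe set names are of an array type usually hybridised otherwise, and which labelling gave these intensities could not be settled. Per the submitters' processing notes the authors used Affymetrix Expression Console 1.1 and PLIER 2.0, with no role or order given. The deposited values are probe set intensities on a linear scale (0.239 to 108984), and no source used here gives the background step or normalization. Median signals of the 6 arrays lay between 58.2 and 72.4 and upper quartiles between 336 and 372, and levels of tested genes correlated within groups at a mean r of 0.942 (heterozygous 6) to 0.968 (null 3). Of 45101 probe sets, 64 were controls, 34945 had 1 gene symbol, 932 several (none was named from these) and 9160 none.

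Values were taken as log2(value + 16), and the brightest probe set on average stood for a gene. The dimmest 30% were left out, and limma 3.58.1 in R 4.3.3 (lmFit, eBayes, two-sided, Benjamini-Hochberg) compared the groups. The fit was also run on simulated data, and no result of that run is used here. Arrays are labelled as separate samples, and their number limits the precision.

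The 10 genes and the 12 other gene lists were chosen with earlier results of these data known. Named were all 10 genes with their probe sets, up to 3 genes per list with the smallest p, Grhl3, and 1 most similar gene each. Ctsl, Flg, Krt2, Krt5, Krt7, Krt8, Krt18 and Krt77 were picked after their values were seen. Alternatives changed the offset, dim filter, probe set choice, normalization, moderation and array weights or left out 1 array, keeping the brightest probe set and, unless the filter or probe set choice itself changed, the tested genes.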

Additional observations from a re-analysis of the deposited data

How the results depend on the processing

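In each of the 15 other settings, 0 of those of the 10 genes that it tested were called in either direction. Ivl, Evpl and Ppl kept a value below 0, and Scel, Sbsn and Dmkn one above 0, in all of them that tested the gene. Cst6 was tested only with no dim filter, and Tgm1 only there and with probe sets averaged. The Tgm3 difference turned to 0.018 with array weights and to 0.44 without heterozygous 6 (as low as −0.97 with another array left out). That of Krtdap was −0.072 to 0.17 with 1 array left out and −0.40 relative to the general epithelium markers. The median of the tested genes was 0.30 with the dimmest 50% left out (Evpl and Tgm3 among them), 0.067 with array weights, 0.044 with probe sets averaged, −0.56 relative to the general epithelium markers and −0.19 to 0.22 with 1 array left out, the highest without heterozygous 6. Over all genes, 57 called higher and 8 lower became 36 and 5 with an offset of 1. The lower count was 5 with the dimmest 50% left out, and with 1 array left out 5 to 9 (5 without null 2 or without heterozygous 5) beside 38 to 54 higher. Where a cause is not given it was not tested. No paired analysis was possible because the groups share no replicate number, and the further title number sets apart null 1 alone, so it could be tried only by leaving out that array. Signals near the lowest level limit Tgm1, Tgm3 and Cst6.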
